A study of Mus musculus with 18 samples.

Results

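The genes of 3 families of conjugating enzymes were followed in 18 mouse livers. They were taken by name alone from the gene symbols of the expression table. The rule used no measured value, but the families were chosen with earlier results of these data known. The families were the UDP-glucuronosyltransferases (Ugt, 20 genes), the cytosolic sulfotransferases (Sult, 21 genes) and the glutathione S-transferases (Gst with the microsomal Mgst, 25 genes). Together they made 66 of the 19057 lines of the table.

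The livers came from ICR mice, an outbred stock, and were 10 weeks old by their labels. The study used males. There were 6 groups of 3 livers: control mice (Con), mice given alginate oligosaccharide at 10 mg/kg (AOS), mice on a high-fat diet (HFD), high-fat diet mice given the same oligosaccharide (HFD+AOS), and high-fat diet mice that received the gut contents of control donors (Con-FMT) or of donors dosed with AOS (A10-FMT). The transferred material was pooled from the small intestines of the donors of a group, so that livers of Con-FMT and A10-FMT carried the diet of the HFD group as well as a transfer from 1 pool. The study was about semen quality and fertility of mice on a high-fat diet after such a transfer, and liver RNA was sequenced beside that question. The labels call each liver a separate sample but do not say that it came from a separate cage or litter, so a p-value covers only the spread between these samples. RNA was sequenced and expression was given as RPKM, reads scaled to transcript length and library size.

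Conjugation is the step that makes a lipid-soluble compound fit for bile or urine. Ugt enzymes add glucuronic acid to bilirubin, bile acids, steroids and drugs, and draw on UDP-glucuronic acid as the donor. Sult enzymes add sulfate from the donor PAPS to steroids, bile acids, phenols and thyroid hormone. Gst enzymes join glutathione to reactive compounds such as lipid aldehydes. The liver is the main site of all these reactions, and many of the genes lie in clusters of close copies.

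The copies limited what the table could resolve. Transcripts of all 66 genes were found in GENCODE release M21 (GRCm38), and the share of each transcript's 50-base words that also occurred in another member was counted. The Ugt1a genes have first exons of their own and share the others, and the share was 58.2% for Ugt1a1, 62.0% for Ugt1a9 and 64.0% for Ugt1a5. It was 80.7% for Ugt1a6b and 100% for Ugt1a6a, in both cases in the transcript of Ugt1a7c. It was 62.3% for Gstp1 and 64.3% for Gstp2, and between 25.5% and 62.1% for Sult2a1, Sult2a2, Sult2a4 and Sult2a5. For Gstp3, Gsta3, Mgst1, Sult1c2 and Sult2a8 it was 0%. The alignment settings in the study's methods report every hit of a read, so reads of shared sequence could have counted for several members.

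Some livers stood apart. Hepatocyte markers fitted the tissue label, with Alb, the serum albumin gene, between 24367 and 41363 RPKM. Of 4 intestinal markers Cdx2 was at 0 in all 18 livers, but Fabp2 was between 36.6 and 112.5 RPKM. The 4 summed to between 38.9 and 116 RPKM. The third Con liver lay between the other 2 for 36 of 42 tested members (85.7%, against 57.3% of all genes tested), and the third AOS liver did so for 32 of 42 (76.2%, against 48.0%), while in the other 4 groups the number was 11 to 21. HFD replicate 1 was low for several Gst genes, and Con-FMT replicate 2 was high for 5 sulfotransferases that were near 0 elsewhere. Absolute depth is unknown because RPKM carries no read numbers. The step in RPKM that 1 read was worth was sought in 406 sparsely read genes, and had mean ratios between 0.97 and 1.02 in the 18 livers. Only values near each gene's smallest value above 0 were kept for it. The ratios were therefore bound to lie near 1 and cannot show whether depths were alike.

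The sequences just before the starts of Ugt1a and Gstp genes are shown because these neighbouring copies with like transcripts have separate starts. They lie before the annotated starts, so they do not show which copy a read came from. RefSeq held such a stretch of 250 bases for 58 of the 66 members (70 windows, build GRCm38.p6). The Ugt1a stretches, on the forward strand of chromosome 1, each lie before a separate first exon of the locus. They are at chr1:88070529-88070778 for Ugt1a9, chr1:88134559-88134808 for Ugt1a6a, chr1:88165762-88166011 for Ugt1a5 and chr1:88211709-88211958 for Ugt1a1, and read 5′ to 3′:
Ugt1a9: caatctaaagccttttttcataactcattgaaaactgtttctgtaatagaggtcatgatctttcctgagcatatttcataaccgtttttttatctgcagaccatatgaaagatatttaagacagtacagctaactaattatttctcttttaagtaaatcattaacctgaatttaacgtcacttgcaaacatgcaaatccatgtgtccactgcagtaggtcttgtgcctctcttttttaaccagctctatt
Ugt1a6a: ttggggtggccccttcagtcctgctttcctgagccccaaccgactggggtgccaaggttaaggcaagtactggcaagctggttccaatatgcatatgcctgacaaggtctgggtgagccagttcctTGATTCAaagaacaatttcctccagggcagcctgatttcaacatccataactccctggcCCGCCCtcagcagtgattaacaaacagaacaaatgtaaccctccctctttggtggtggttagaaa
Ugt1a5: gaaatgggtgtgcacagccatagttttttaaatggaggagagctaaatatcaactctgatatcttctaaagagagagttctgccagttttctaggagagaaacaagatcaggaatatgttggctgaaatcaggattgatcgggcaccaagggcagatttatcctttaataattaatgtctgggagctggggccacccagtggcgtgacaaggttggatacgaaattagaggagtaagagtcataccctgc
Ugt1a1: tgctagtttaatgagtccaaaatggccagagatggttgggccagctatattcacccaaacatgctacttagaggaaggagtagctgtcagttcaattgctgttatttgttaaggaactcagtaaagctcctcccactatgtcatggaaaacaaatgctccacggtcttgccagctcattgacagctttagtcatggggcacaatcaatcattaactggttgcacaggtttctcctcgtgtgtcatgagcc
Capitals mark matches, on either strand, to an AP-1 site (TGANTCA) or a GC box (GGGCGG). Ugt1a6a held an AP-1 match that began 124 bases before the start and a GC box match that began 65 bases before it, and the other 3 stretches held neither. Of all 32851 promoter windows, 6.75% held the AP-1 letters and 32.7% the GC box letters, so single matches of this kind are frequent and are given as a description.

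The 3 pi-class genes lie side by side on the reverse strand of chromosome 19. The stretches are cut where a GENCODE exon begins, and cover chr19:4037986-4038162 for Gstp1, chr19:4042264-4042471 for Gstp2 and chr19:4059570-4059697 for Gstp3:
Gstp1: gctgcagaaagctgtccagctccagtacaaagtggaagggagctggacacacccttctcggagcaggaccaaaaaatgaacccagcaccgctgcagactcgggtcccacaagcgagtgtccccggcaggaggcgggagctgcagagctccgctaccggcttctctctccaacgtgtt
Gstp2: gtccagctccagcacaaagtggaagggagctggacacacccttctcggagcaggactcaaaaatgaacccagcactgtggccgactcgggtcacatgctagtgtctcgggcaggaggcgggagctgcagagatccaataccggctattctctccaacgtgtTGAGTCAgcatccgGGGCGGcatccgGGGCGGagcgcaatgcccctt
Gstp3: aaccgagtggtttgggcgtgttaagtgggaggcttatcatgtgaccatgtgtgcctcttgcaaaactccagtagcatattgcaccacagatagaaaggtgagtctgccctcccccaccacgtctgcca
Gstp2 held 1 AP-1 match and 2 GC box matches, in capitals. The window of Gstp1 held 1 of each, which began 74 and 60 bases before its RefSeq start and so were not wholly within the stretch printed, and Gstp3 held none. Whole windows were 78.1% identical between Gstp1 and Gstp2, 50% between Gstp1 and Gstp3 and 46.5% between Gstp2 and Gstp3. The core of the antioxidant response element (TGACNNNGC), which Nrf2 binds, was in 10.2% of all windows and in those of 4 members, Gsta3, Gstm5, Gstm7 and Mgst1. A TATA box (TATAAA) was in 12.4% of all windows and in 13 members.

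The conjugating enzymes were abundant and uneven in level. The 66 genes held between 1.68% and 2.42% of a liver's summed RPKM. A gene was tested where it reached an RPKM of 1 in at least 3 livers, which 42 members did: 14 Ugt, 6 Sult and 22 Gst and Mgst genes. Another 21 were below this level and 3 (Sult1c1, Sult2a4 and Gstt4) were listed at 0 in all livers. The members below it were Ugt1a2, Ugt1a7c, Ugt1a10, Ugt2a1, Ugt2a2, Ugt2b37, Gsto2, Mgst2 and 13 Sult genes (Sult1e1, Sult2a1, Sult2a2, Sult2a3, Sult2a5, Sult2a6, Sult2a7, Sult2b1, Sult3a1, Sult3a2, Sult4a1, Sult6b1 and Sult6b2).

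A few genes made up most of each family. Gstp1, a pi-class transferase that is high in male mouse liver, had a mean of 5331 RPKM over 18 livers, or 43.7% of its family. Mgst1, an enzyme of the endoplasmic reticulum and the outer mitochondrial membrane, followed at 3102 RPKM, then Gstm1 at 1259 RPKM and Gsta3 at 690 RPKM. Among Ugt genes the bulk was spread more evenly. Ugt2b5 led at 551 RPKM (26.3% of its family), before Ugt2b36 at 395 RPKM, Ugt2b1 at 253 RPKM and Ugt3a2 at 150 RPKM. Sult2a8, a sulfotransferase of bile acids, had 450 RPKM and 61.8% of the Sult sum, before Sult1a1, a phenol sulfotransferase, at 193 RPKM, Sult5a1 at 37.5 RPKM and Sult1d1 at 23.5 RPKM. Gstz1, which isomerises maleylacetoacetate in the breakdown of tyrosine, was at 455 RPKM. Bilirubin is glucuronidated by Ugt1a1, at 63.0 RPKM. Gsto1, the omega-class gene, was the steadiest of the Gst family, between 76.5 and 96.9 RPKM in 18 livers.

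**Figure D1:**
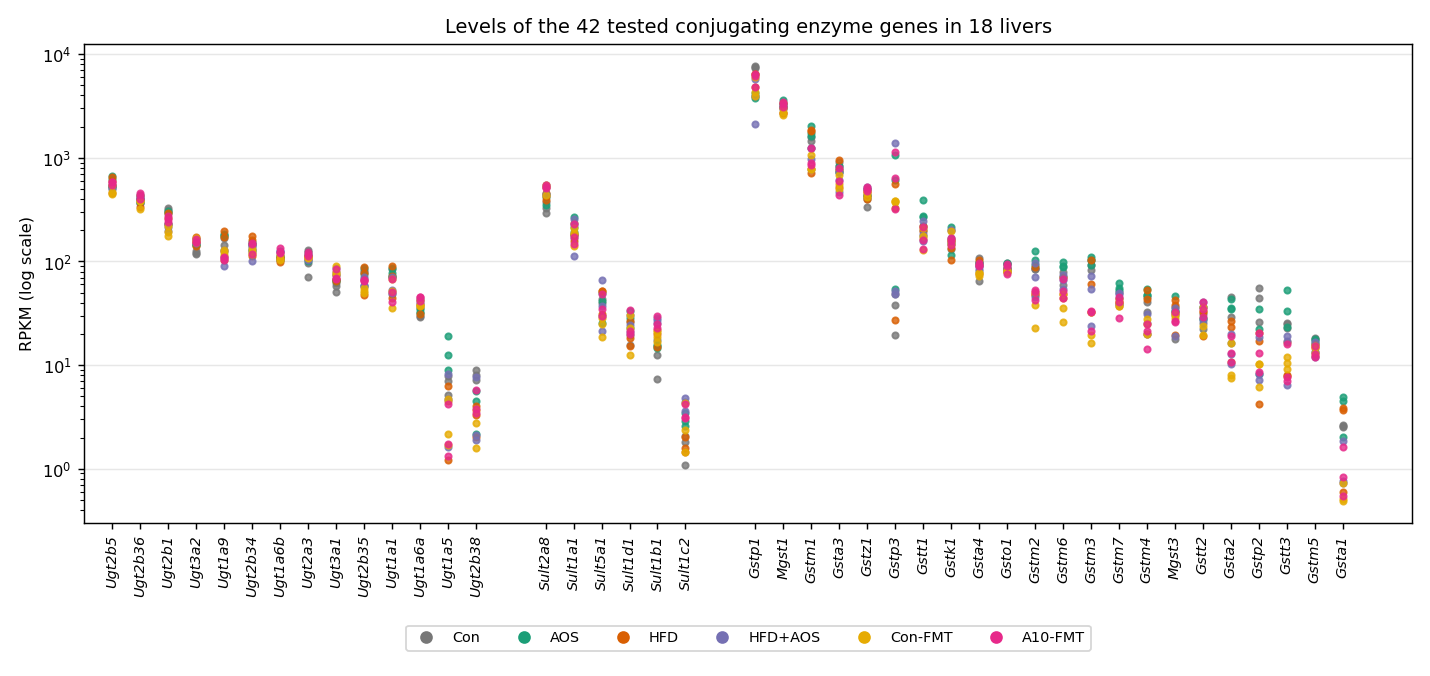
Level of each of the 42 tested genes in each of the 18 livers, as RPKM on a log scale, with genes ordered by mean level within the Ugt, Sult and Gst families and points coloured by group. Gstp1 and Mgst1 stand highest, and Gstp3 spans 19.3 to 1394 RPKM.

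The summed level of a family differed between some groups. The Gst and Mgst sum was 13936, 14766 and 14694 RPKM in Con livers, 11839, 12839 and 11899 RPKM in AOS, and 9598, 11275 and 10653 RPKM in HFD+AOS. These 3 groups did not overlap with each other. Gstp1, the largest part of the sum, was at 7303 to 7745 RPKM in Con and at 3798 to 4262 RPKM in AOS. Gene by gene, 18 of the 22 tested Gst and Mgst genes were higher in AOS than in Con and 4 lower. Of all 10507 genes tested 7122 were higher. The HFD sum (11580, 14343 and 12178 RPKM) overlapped with that of Con and of A10-FMT (13586, 13232 and 11250 RPKM), and the Con-FMT sum (10066, 9423 and 12408 RPKM) overlapped with all groups but Con. For the sulfotransferases the order was the other way round. The Sult sum was 539, 617 and 584 RPKM in Con, below each of the 15 other livers, where it lay between 622 and 883 RPKM. The Ugt sum overlapped between most groups, at 1971 to 2166 RPKM in Con, 1840 to 2364 RPKM in HFD and 2083 to 2230 RPKM in A10-FMT. With 3 livers a group an exact permutation test of a sum cannot give a p below 0.1, so these orders are given without one.

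Gene by gene, few members passed the test in any comparison. Each was tested with limma on log2(RPKM + 1) in a fit of all 18 livers, and called at a Benjamini-Hochberg adjusted p under 0.05 over the 10507 genes tested. Fold changes are on that scale and understate those of low genes. Between HFD and Con 0 of 42 members were called, where 0.381% of all genes were, and 7 members (16.7%) had an unadjusted p under 0.05, against 15.4% of all genes. Between A10-FMT and HFD 1 member was called, against 6.60% of all genes, and 9 (21.4%) had an unadjusted p under 0.05, against 24.5%. Between Con-FMT and HFD the count was 0, beside 0.00952% of all genes, with 10 members (23.8%) and 6.63% of all genes at an unadjusted p under 0.05. For A10-FMT against Con-FMT it was also 0, beside 1.68%, with 5 members (11.9%) and 16.4% of all genes unadjusted. For AOS against Con it was 0, beside 0.133%, with 9 members (21.4%) and 15.5% of all genes unadjusted. HFD+AOS against HFD gave 2 members, beside 8.75%, with 8 (19%) and 26.2% of all genes unadjusted. The interaction of AOS with diet (its effect on the high-fat diet minus that on the regular diet) gave 0, beside 0.504%, with 2 members (4.76%) and 14.7% of all genes unadjusted. A10-FMT, Con-FMT and HFD+AOS were all compared with the same 3 HFD livers.

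The medians were small. Over the 42 tested members the median log2 fold change was -0.03 for HFD against Con (0.05 over all genes), -0.01 for A10-FMT against HFD (-0.03) and -0.14 for Con-FMT against HFD (0.00). It was 0.20 for A10-FMT against Con-FMT (-0.03), 0.24 for AOS against Con (0.07) and -0.01 for HFD+AOS against HFD (-0.01). In the AOS livers 34 of 42 members were higher than in Con and 8 lower, and in A10-FMT 31 were higher than in Con-FMT and 11 lower. Of all 10507 genes 7122 were higher in AOS than in Con, and 4516 in A10-FMT than in Con-FMT. With each library's median set equal, 29 and 33 of the 42 members were higher, beside 5213 and 5569 of all genes. Groups did not overlap for 38.1% of members between AOS and Con (14 higher, 2 lower in AOS), where 24.7% of all genes did not. Without the third Con and AOS livers the share of members was the same, 38.1%, and that of all genes was 37.2%. For HFD and Con it was 21.4% of members against 18.5% of all genes, and 21.4% against 22.3% without the third Con liver. For A10-FMT and HFD the share was 14.3% of members against 23.4% of all genes, for HFD+AOS and HFD 14.3% against 27.2%, for Con-FMT and HFD 7.14% against 10.1%, and for A10-FMT and Con-FMT 26.2% against 18.3%.

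**Figure D2:**
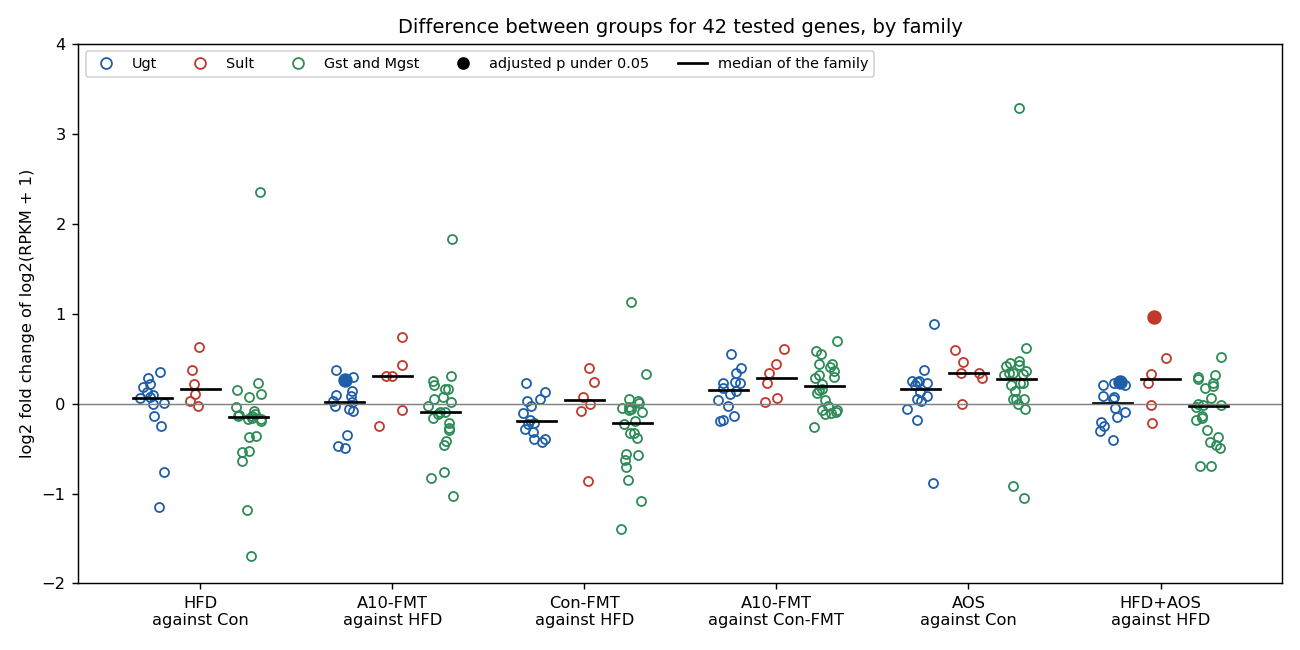
Log2 fold change, on the log2(RPKM + 1) scale, of the 42 tested genes in 6 comparisons, split into Ugt, Sult and Gst genes, with filled points for an adjusted p under 0.05 and bars for the family median. Filled points are Ugt1a6b in A10-FMT and HFD+AOS against HFD, and Sult1c2 in HFD+AOS against HFD. The point at 3.28 for AOS against Con is Gstp3, which did not pass the test.

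Among glucuronidation genes Ugt1a6b alone passed the test, in 2 comparisons. Ugt1a6b (chr1:88103252-88219003, forward strand, GRCm38 in GENCODE M21) belongs to the phenol-conjugating branch of the Ugt1a locus and was at 107.83, 110.90 and 98.95 RPKM in HFD livers. In HFD+AOS it was at 124.46, 127.10 and 124.92 RPKM, and in A10-FMT at 120.22, 136.17 and 124.61 RPKM. All 6 of these livers were above all HFD livers, and also above the Con (104.11 to 108.03 RPKM), AOS (105.13 to 112.22 RPKM) and Con-FMT livers (103.81 to 115.32 RPKM). Ugt1a6b rose 1.20-fold in A10-FMT (log2 0.26, SE 0.07, adjusted p = 0.0392 by limma) and 1.18-fold in HFD+AOS (log2 0.24, SE 0.07, adjusted p = 0.0435). Both calls were near the threshold: without the third Con and AOS livers the adjusted p was 0.0811 and 0.0841, and with only the 2 groups in the fit it was 0.240 and 0.162. It reached 0.175 without A10-FMT replicate 2 in the first comparison and 0.171 without HFD replicate 3 in the second.

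Its neighbour Ugt1a6a, whose words all occur in the transcript of Ugt1a7c, showed a like order. It was at 38.85, 37.48 and 31.22 RPKM in HFD, at 41.98, 45.00 and 45.37 RPKM in A10-FMT and at 40.17, 42.42 and 43.23 RPKM in HFD+AOS. The groups did not overlap, but the log2 fold changes of 0.30 (SE 0.09, adjusted p = 0.0608 by limma) and 0.23 (SE 0.09, adjusted p = 0.133) did not pass the test. With each library's median set equal, Ugt1a6a passed it in A10-FMT (log2 0.34, adjusted p = 0.0309).

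The other tested Ugt1a genes, Ugt1a1, Ugt1a5 and Ugt1a9, had the opposite sign in A10-FMT against HFD. Ugt1a9, which glucuronidates phenols and fatty acids, was at 103.75, 171.19 and 195.95 RPKM in HFD and at 103.54, 110.37 and 108.92 RPKM in A10-FMT. HFD replicate 1 was thus at the A10-FMT level, and the groups overlapped. The log2 fold change was -0.49 (SE 0.19, adjusted p = 0.135 by limma), and without HFD replicate 1 it was -0.76 (adjusted p = 0.0108). The log2 fold changes of Ugt1a1 (-0.35, SE 0.28) and Ugt1a5 (-0.48, SE 0.48) did not pass the test. The same split was seen inside groups. Across deviations of the 18 livers from their group means, Ugt1a1, Ugt1a5 and Ugt1a9 went together (r from 0.65 to 0.74), Ugt1a6a and Ugt1a6b went together (r = 0.59), and the 6 correlations between these sets were all negative (-0.19 to -0.41). These are descriptions over 18 livers whose libraries and shared exons are common to both genes of a pair.

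**Figure D3:**
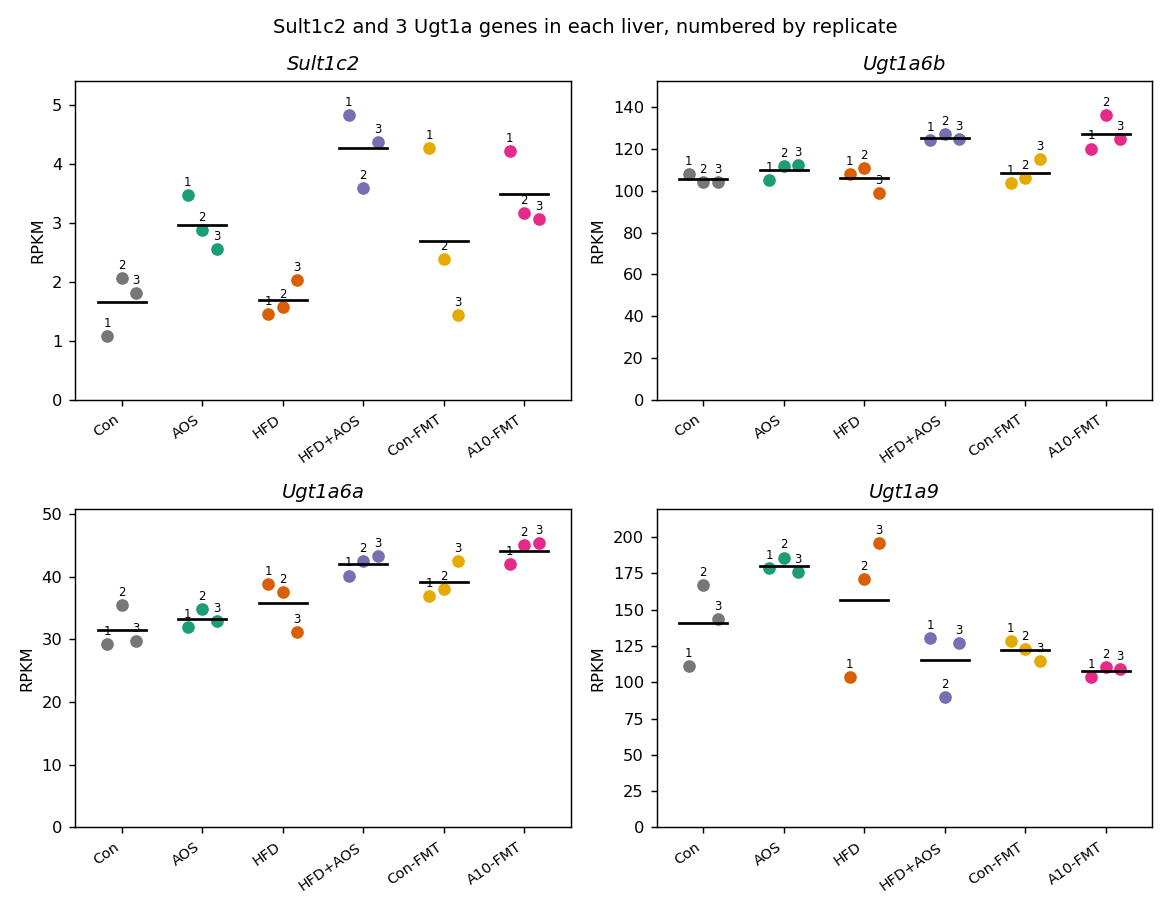
RPKM of Sult1c2, Ugt1a6b, Ugt1a6a and Ugt1a9 in each liver, from 0, with the replicate number beside each point and bars at the group means. The HFD+AOS and A10-FMT livers stand above the HFD livers for Sult1c2, Ugt1a6b and Ugt1a6a, while for Ugt1a9 HFD replicate 1 lies with the A10-FMT livers.

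Of the 9 tested Ugt2 and Ugt3 genes 0 passed the limma test. Ugt3a2, which uses sugars other than glucuronic acid, came nearest in the high-fat diet. It was at 117.16, 127.61 and 119.79 RPKM in Con and at 172.49, 139.95 and 154.27 RPKM in HFD, without overlap (log2 0.35, SE 0.08, adjusted p = 0.0704 by limma). Every liver of the other 5 groups, from 139.95 to 172.49 RPKM, was above every Con liver. Without Con replicate 2 the difference passed the test (adjusted p = 0.0404).

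Ugt2b1, a male-biased enzyme, was at 190.65, 176.43 and 218.28 RPKM in Con-FMT, at 231.37, 296.04 and 263.64 RPKM in HFD and at 255.92, 273.98 and 241.71 RPKM in A10-FMT. The Con-FMT livers were below those of both groups, with log2 fold changes of -0.43 against HFD (SE 0.12, adjusted p = 0.499 by limma) and of 0.40 for A10-FMT against Con-FMT (adjusted p = 0.110), neither past the threshold. Ugt2b5 and Ugt2b36, the 2 most abundant Ugt genes, differed between the lowest and the highest liver by 1.48-fold and 1.42-fold. Ugt2b38, a low relative of Ugt2b5 with 34.1% of its words in that gene, was at 8.93, 7.15 and 7.96 RPKM in Con and at 3.31, 4.02 and 2.04 RPKM in HFD (log2 -1.15, SE 0.36, adjusted p = 0.158).

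Among sulfotransferases Sult1c2 gave the clearest difference. Sult1c2 (chr17:53829637-53846339, reverse strand) codes for a sulfotransferase of phenols and was low in these livers, at 1.46, 1.57 and 2.04 RPKM in HFD. It was at 4.83, 3.59 and 4.38 RPKM in HFD+AOS and at 4.23, 3.17 and 3.07 RPKM in A10-FMT. All 6 values lay above the HFD livers, and the AOS livers (3.47, 2.88 and 2.56 RPKM) lay above the Con livers (1.09, 2.06 and 1.81 RPKM). Con-FMT livers spread over the whole span, at 4.27, 2.39 and 1.44 RPKM.

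Sult1c2 rose 1.96-fold in HFD+AOS against HFD (log2 0.97, SE 0.22, 95% interval 0.51 to 1.43, adjusted p = 0.0140 by limma). The adjusted p was 0.0624 without HFD+AOS replicate 1, the highest liver, and under 0.05 with any other liver of these groups left out. In A10-FMT against HFD the log2 fold change was 0.74 (SE 0.22, adjusted p = 0.0525) and in AOS against Con 0.59 (SE 0.22, adjusted p = 0.211). The interaction of AOS with diet was 0.37 (SE 0.31, adjusted p = 0.581), which did not pass the test. With each library's median set equal, the A10-FMT difference passed it (log2 0.78, adjusted p = 0.0342).

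Sult2a8 and Sult1b1, a sulfotransferase of thyroid hormone, were lowest in Con. Sult2a8 was at 291.69, 371.17 and 328.70 RPKM in Con, at 431.78, 393.14 and 459.69 RPKM in HFD and at 520.36, 552.72 and 509.10 RPKM in A10-FMT, so that the 3 groups followed each other without overlap. The log2 fold changes were 0.38 for HFD against Con (SE 0.12, adjusted p = 0.160 by limma) and 0.30 for A10-FMT against HFD (SE 0.12, adjusted p = 0.134), neither past the threshold. For Sult1b1 the values were 7.38, 17.43 and 12.49 RPKM in Con and 21.93, 19.94 and 14.95 RPKM in HFD (log2 0.63, adjusted p = 0.168). They overlapped through Con replicate 2, without which Sult1b1 passed the test (log2 0.89, adjusted p = 0.0249). Sult1a1 and Sult1d1 had unadjusted p above 0.05 in all 7 comparisons. Sult5a1 had the widest spread within groups of the tested Sult genes, an SD of 0.47 on the log2 scale, and was at 66.24, 37.17 and 21.23 RPKM in the 3 HFD+AOS livers.

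Sulfotransferases that are near 0 in male liver were raised in 1 liver. Sult2a1, which sulfates steroids and bile acids and is female-biased in mouse liver, was at 7.30 RPKM in Con-FMT replicate 2 and at 0.56 RPKM or less in the other 17 livers. Sult3a1 was at 2.80 RPKM there, against at most 0.22 RPKM elsewhere. Sult2a2 was at 1.98 RPKM against at most 0.21, Sult3a2 at 0.55 against at most 0.09, and Sult1e1, the oestrogen sulfotransferase, at 0.49 against at most 0.22. None of the 5 genes reached an RPKM of 1 in 3 livers, so none was tested. The lower values of Sult2a1 were multiples of 0.07 RPKM to the 2 decimals given, so that values such as 0.14 may rest on very few reads. The same liver was the highest of 18 for 2 of the 10 tested genes of a female-biased list, Cyp4a10 and Cyp4a14, and not for the other 8. In it 4 Y-linked genes were within the range of all livers, for example Ddx3y at 12.9 RPKM in a range of 10.1 to 13.7. Con-FMT replicate 2 was also the lowest of 18 for 9 of the 42 tested members and the highest for 0. No such count over all genes tested was made for this liver. The cause was not tested, and every comparison with Con-FMT gave 0 calls among the members with and without it.

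Livers of a group differed widely in many Gst and Sult genes. The median SD within groups was 0.34 on the log2 scale for the 22 tested Gst and Mgst genes, 0.32 for the 6 Sult genes and 0.17 for the 14 Ugt genes, beside 0.13 for all genes tested. Of the 42 members 34 were above the median of all genes. Limited to genes with a mean of at least 10 RPKM it was 0.27 for 38 members and 0.13 for 4202 genes. The median over members was 0.32 without the third Con and AOS livers and 0.28 without Con-FMT replicate 2.

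Gstp3 was the extreme. Its SD within groups of 1.79 on the log2 scale was the second largest of 10507 genes. It was at 19.32, 48.31 and 38.01 RPKM in Con, but at 54.74, 1054.48 and 611.13 RPKM in AOS and at 27.34, 328.17 and 558.61 RPKM in HFD. In HFD+AOS it was at 1393.70, 52.29 and 48.79 RPKM. The values were at either 54.74 RPKM and below or 323.85 RPKM and above, and both kinds occurred within AOS, HFD and HFD+AOS. All Con-FMT livers (382.93, 371.96 and 380.79 RPKM) and all A10-FMT livers (1138.14, 632.98 and 323.85 RPKM) were in the upper range. No comparison passed the test. The largest log2 fold change was 3.28 for AOS against Con (SE 1.28, 95% interval 0.57 to 5.99, adjusted p = 0.234 by limma), and the interval for HFD+AOS against HFD ran from -2.87 to 2.54.

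Its neighbours did not follow it. Gstp1, 1 of the most abundant liver transcripts, was at 7599.66, 7303.13 and 7745.02 RPKM in Con and at 3913.70, 4262.09 and 3798.13 RPKM in AOS. The Con livers were the highest of all 18, and AOS livers were below those of Con and HFD (6417.11, 6499.37 and 4867.85 RPKM). The log2 fold change of -0.92 for AOS against Con (SE 0.26, adjusted p = 0.144 by limma) did not pass the test, but did with only these 2 groups in the fit (adjusted p = 0.0352). In HFD+AOS Gstp1 was at 2122.89, 5718.48 and 3959.11 RPKM (log2 -0.69 against HFD, SE 0.26, adjusted p = 0.108), and without HFD+AOS replicate 2 the difference passed the test (log2 -1.02, adjusted p = 0.0241). Gstp2 was at 55.03, 26.09 and 44.56 RPKM in Con and 4.23, 20.36 and 17.08 RPKM in HFD, without overlap (log2 -1.70, SE 0.54, adjusted p = 0.161). Across deviations from group means r was -0.50 for Gstp1 with Gstp3, 0.42 for Gstp2 with Gstp3 and 0.16 for Gstp1 with Gstp2, the pair that shares most sequence.

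**Figure D4:**
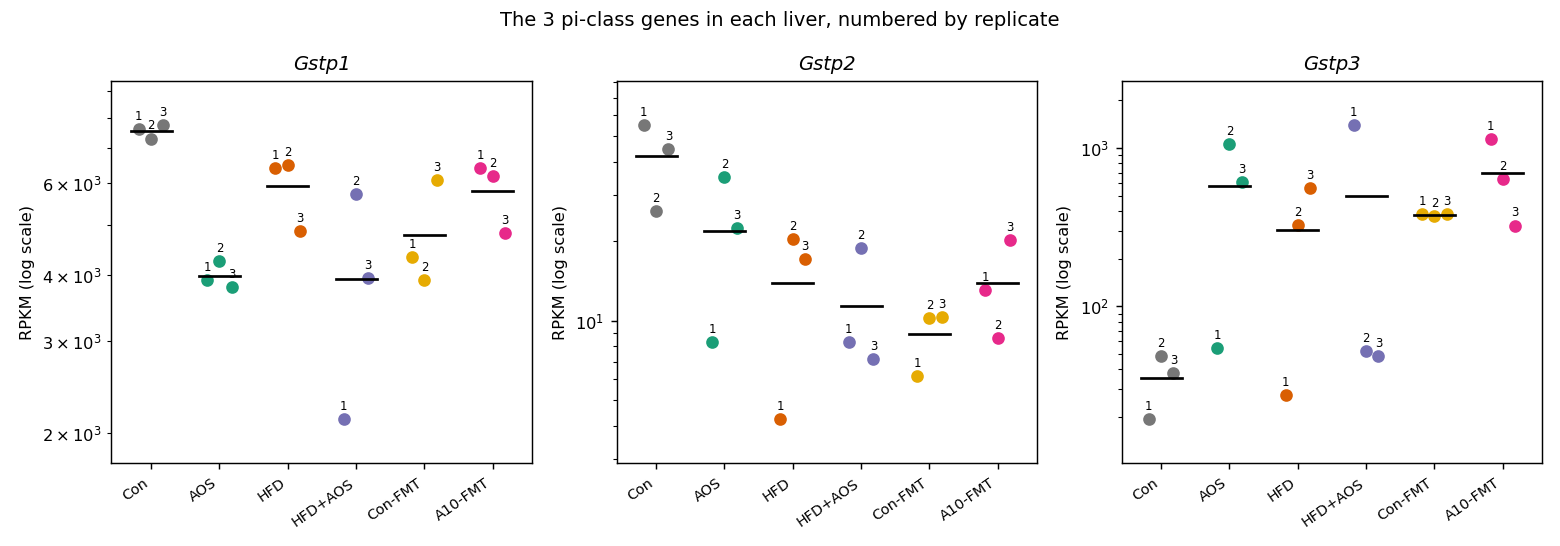
RPKM on log scales of Gstp1, Gstp2 and Gstp3 in each liver, with replicate numbers and bars at the group means. Gstp3 lies at either 54.74 RPKM and below or 323.85 RPKM and above, with both kinds in the AOS, HFD and HFD+AOS groups, while the 3 Con livers are the highest for Gstp1.

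The mu class, which clusters on chromosome 3, varied together. Over 21 pairs of its 7 genes the median r of deviations from group means was 0.61, with 16 pairs over 0.5, against 0.19 over all 861 pairs of tested members. The alpha class had a median of 0.60 over 6 pairs and the Ugt2 genes 0.44 over 21 pairs. These values describe 18 livers, and Gstm1 and Gstm3 have 10.9% and 15.8% of their words in other members. The 7 mu-class genes summed to 911 RPKM in HFD replicate 1 and to 2245 and 2071 RPKM in the other HFD livers. Gstm1, the main mu-class transferase of liver, was at 712.29 RPKM there and at 1870.32 and 1819.83 RPKM in the other HFD livers. Gsta1, an alpha-class gene, was at 0.59 RPKM against 3.89 and 3.70 RPKM.

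The number of members called against HFD in A10-FMT, HFD+AOS and Con-FMT changed when this liver was left out. Between HFD and Con it stayed at 0. The liver stood out by its low mu-class genes and Gsta1. Leaving out a low value raises the HFD mean and narrows the spread of these genes. Calls of the same genes without this liver are therefore no separate support. Gstm4 was at 20.07, 52.68 and 42.98 RPKM in HFD and at 21.32, 14.45 and 25.03 RPKM in A10-FMT, which overlapped (log2 -0.82, SE 0.28, adjusted p = 0.0791 by limma). Gstm3 differed by -1.03 (SE 0.39, adjusted p = 0.117) and Gstm1 by -0.46 (adjusted p = 0.346). Without HFD replicate 1, 7 members were called between A10-FMT and HFD, where 10.2% of all genes were. Lower in A10-FMT were Gstm4 (log2 -1.23, adjusted p = 0.00438), Gsta1 (-1.29, 0.0105), Ugt1a9 (-0.76, 0.0108), Gstm1 (-0.92, 0.0150) and Gstm3 (-1.46, 0.0278), and higher were Ugt1a6a (0.36, 0.0364) and Ugt1a6b (0.27, 0.0436).

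The same held for AOS on the high-fat diet. Without HFD replicate 1, 8 members were called between HFD+AOS and HFD, beside 12.2% of all genes. Gsta1, Gstm1, Ugt1a9, Gstm4 and Ugt2b34 were lower in HFD+AOS by 0.44 to 1.22 on the log2 scale, and Sult1c2, Gstk1 and Ugt1a6b were higher by 0.26 to 0.91. The interaction of AOS with diet gave 4 members without this liver, beside 1.77% of all genes: Ugt1a9 (-1.05), Gstm1 (-1.25), Gsta1 (-1.59) and Gstm4 (-1.23), with adjusted p between 0.0258 and 0.0457. Gsta1 was then also called between Con-FMT and HFD (-1.61, adjusted p = 0.0316). With all 3 HFD livers in the fit these numbers were 1, 2, 0 and 0. Which HFD livers are typical of the diet was not tested.

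**Figure D5:**
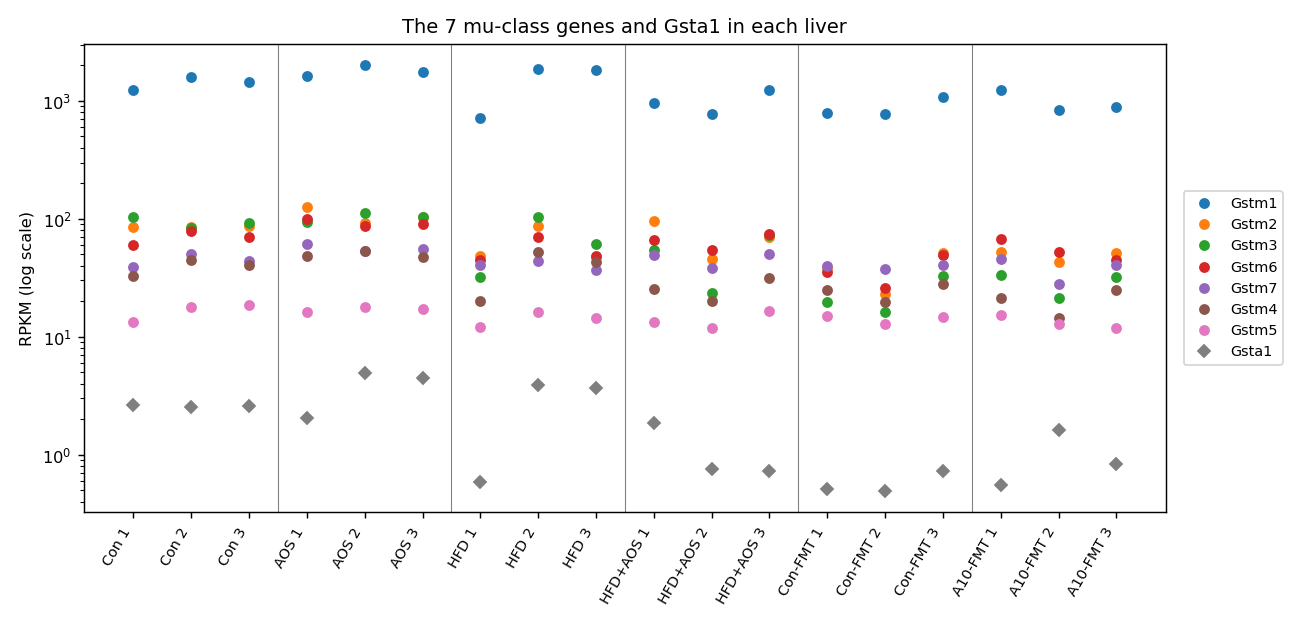
RPKM on a log scale of the 7 mu-class genes (circles) and Gsta1 (diamonds) in each of the 18 livers, in groups divided by vertical lines. In HFD replicate 1 Gstm1 is at 712 RPKM and Gsta1 at 0.59 RPKM, near the HFD+AOS, Con-FMT and A10-FMT livers and below the other HFD livers.

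The remaining transferases gave small differences. Mgst1 lay between 2610 and 3599 RPKM in all livers and its log2 fold changes were between -0.14 and 0.22 in the 6 comparisons of groups. Gstz1 was at 335.91, 437.31 and 399.64 RPKM in Con and 527.92, 495.25 and 500.69 RPKM in HFD+AOS, and differed by 0.23 between HFD+AOS and HFD (SE 0.10, adjusted p = 0.156 by limma). Gstk1, a transferase of mitochondria and peroxisomes, differed by 0.52 there (SE 0.19, adjusted p = 0.103). In the theta class Gstt3 was at 25.36, 23.02 and 25.19 RPKM in Con and at 8.0, 7.83 and 16.85 RPKM in HFD, without overlap (log2 -1.18, SE 0.38, adjusted p = 0.161). Gstt1, which metabolises small halogenated compounds, was at 175.84, 220.52 and 202.65 RPKM in Con and higher in all 3 AOS livers, at 389.46, 268.05 and 276.75 RPKM (log2 0.62, SE 0.22, adjusted p = 0.199). AOS livers gave the highest of 18 values for 16 of the 42 tested members, 10 of them in AOS replicate 1, and Con replicate 1 the lowest for 11. Such extremes were not counted over all genes, so they cannot be read as a trait of these families. Con replicate 1 also had the lowest library median of log2(RPKM + 1), at 2.89. That of AOS replicate 1, at 3.06, was among the highest.

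Some genes that supply the donors of conjugation passed the test. For UDP-glucuronic acid, Ugp2, which makes UDP-glucose, was at 79.32, 85.40 and 85.00 RPKM in HFD, at 125.59, 106.20 and 117.92 RPKM in A10-FMT and at 121.40, 116.08 and 127.80 RPKM in HFD+AOS. Neither group overlapped with HFD, and Ugp2 rose in A10-FMT (log2 0.48, SE 0.10, adjusted p = 0.0133 by limma), in HFD+AOS (0.54, adjusted p = 0.00603) and in AOS against Con (0.58, adjusted p = 0.0397). Slc35d2, a carrier of nucleotide sugars, rose in the same 3 comparisons, by 0.25, 0.39 and 0.39. Without the third Con and AOS livers neither gene passed the test in AOS against Con (adjusted p = 0.523 for both by limma). Of the 13 tested genes of this list 2, 3 and 2 rose and 0 fell in A10-FMT and HFD+AOS against HFD and AOS against Con, and 0 passed between HFD and Con or between the transfers.

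Fewer passed on the sulfate and glutathione lists. Of 11 tested genes of PAPS supply and desulfation, Slc35b2, the carrier of PAPS into the Golgi, rose in A10-FMT (log2 0.31, adjusted p = 0.0396 by limma) and in HFD+AOS (0.43, adjusted p = 0.00680). Arsa and Slc26a1 rose in HFD+AOS by 0.66 and 0.39, and Suox, the sulfite oxidase, fell by 0.51 in A10-FMT. Of 18 tested genes of glutathione supply and breakdown 1 rose and 1 fell in A10-FMT against HFD. Ggct, which releases oxoproline from glutamyl peptides, fell by 0.63 there (adjusted p = 0.00168) and by 0.67 in A10-FMT against Con-FMT. Acy1, an aminoacylase, rose by 0.57 in A10-FMT and by 0.55 in HFD+AOS, where Anpep and Acy3 also rose, by 0.29 and 0.42.

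The carriers listed serve efflux or uptake. Abcc2, the main exporter of glucuronides and glutathione conjugates into bile, was at 20.01, 28.76 and 24.04 RPKM in Con. In HFD it was at 34.63, 33.71 and 38.01 RPKM. In HFD against Con all 14 tested carriers of efflux or uptake had positive log2 fold changes, as did 6569 of all 10507 genes. Abcc2 was the only carrier called, and rose with the diet (log2 0.54, SE 0.11, adjusted p = 0.0414 by limma). Without the third Con and AOS livers the adjusted p was 0.261, and without Con replicate 1 it was 0.196. Slco2a1, a prostaglandin carrier, fell by 0.73 in A10-FMT and by 0.75 in HFD+AOS. Among 16 tested receptors and cofactors, 5 rose and 1 fell in A10-FMT against HFD. Por, the electron donor of cytochromes P450, rose 2.54-fold, and Nr1i3, the receptor CAR that controls many Ugt and Sult genes, by 1.00 on the log2 scale, while Stat5b, which carries the growth hormone signal of sex-biased liver genes, fell by 0.66. In A10-FMT against Con-FMT, Por and Nr1h4 rose and Stat5b fell, and in HFD+AOS against HFD, Ppara, Cebpa and Nr1h4 rose while Stat5b and Hnf4a fell. Stat5b was also the only gene of these lists called in the interaction of AOS with diet (-0.69, adjusted p = 0.0174 by limma, and 0.165 without the third Con and AOS livers).

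Of 15 tested targets of Nrf2 outside the 3 families, 0 rose and 1 fell in A10-FMT against HFD (Osgin1, by 0.96), 1 rose in HFD+AOS against HFD (Akr7a5, by 0.39) and 1 rose in HFD against Con (Akr1c6, by 0.51, adjusted p = 0.0498 by limma, and 0.304 without the third Con and AOS livers). Among cytochrome P450 targets of liver receptors, in A10-FMT against HFD Cyp4a14 fell by 2.84 and Cyp4a10 fell by 2.44, Cyp3a13 fell in HFD+AOS by 1.03, and Cyp1a2 rose in A10-FMT against Con-FMT by 0.46. Of 17 tested genes of other conjugations, the methyltransferases Inmt and Hnmt rose in A10-FMT (1.47 and 0.67) and in HFD+AOS (1.30 and 0.66), and Inmt rose in A10-FMT against Con-FMT (1.43). Of 14 male-biased genes Elovl3 fell in A10-FMT against HFD by 3.14, in HFD+AOS against HFD by 2.64 and in A10-FMT against Con-FMT by 2.72, and Selenbp2 fell in HFD+AOS by 1.44. Of 10 tested female-biased genes Cyp4a14, Cyp3a44 and Cyp4a10 fell in A10-FMT against HFD and Acot3 rose in HFD+AOS.

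Many calls on these lists depended on which livers were in the fit. Without the third Con and AOS livers 11 of the 23 genes called between A10-FMT and HFD still passed the test, 12 of 26 between HFD+AOS and HFD, and 3 of 7 between A10-FMT and Con-FMT. For the first of these comparisons the adjusted p by limma was then 0.0894 for Slc35d2 and 0.067 for Slc35b2. The third Con and AOS livers are not in these comparisons and leave their fold changes as they were. They enter only through the spread, which is estimated over all groups. With any 1 liver of the compared groups left out, Elovl3, Ggct, Sox9, Stat5b and Cyp2e1 passed the test in A10-FMT against HFD. Ugp2, Slc35d2, Slc35b2, Ppara, Elovl3 and Sox9 did so in HFD+AOS against HFD, and Elovl3, Ggct and Stat5b in A10-FMT against Con-FMT. No gene of the lists did so in the other comparisons.

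Markers of cell types and zones moved with some of these comparisons. In livers as a whole, fewer cells of a kind and less RNA per cell cannot be told apart. The summed level of 10 pericentral genes was 3682 to 3930 RPKM in HFD, 5006 to 6555 RPKM in A10-FMT and 5432 to 6003 RPKM in HFD+AOS. Most of it was Cyp2e1, also on the hepatocyte list, which rose in both (0.70 and 0.63). Without Cyp2e1 the sums were 566 to 639, 590 to 662 and 668 to 769 RPKM. Of the 9 tested genes of the list, Cyp2e1 among them, 4 were higher and 5 lower in A10-FMT than in HFD. The median log2 fold change of these 9 was -0.02. Axin2 fell in A10-FMT by 0.57, Glul rose in HFD+AOS by 0.40, and Cyp1a2 rose in A10-FMT against Con-FMT. The 9 periportal genes summed to 3690 to 4200, 3929 to 4181 and 3536 to 4263 RPKM, and Cdh1 fell by 0.80 in HFD+AOS. The 5 cholangiocyte markers summed to 5.65 RPKM or less in every liver, and Sox9 among them fell in both groups (by 1.03 and 0.87). Kupffer cell, endothelial, stellate, red cell, intestinal and pancreatic markers had 0 calls in all 7 comparisons. Their part in the results was not tested.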

How the data were processed

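RNA of 18 livers was sequenced on an Illumina HiSeq instrument. The authors gave RPKM per gene for each library, rounded to 2 decimals, and deposited no read numbers with them. The study's methods name SOAPaligner with every hit of a read reported, while the submitters' processing notes name Bowtie 0.12.2 and mm10, and which of them made the table is not settled by the sources used here. The annotation and strandedness are not given in the sources used here. The count test that the study names (DEGseq) needs read numbers and was not run.

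Members were matched by gene symbol. The members and the gene lists were chosen with earlier results of these data known. Genes that reached an RPKM of 1 in 3 or more libraries (10507 of 17109 above 0) were tested on log2(RPKM + 1) with limma 3.58.1 in R 4.3.3, with 6 group means over all libraries, moderated variances with a trend, and Benjamini-Hochberg adjustment over all 10507 genes (threshold 0.05). All p-values are two-sided. Library medians of log2(RPKM + 1) lay between 2.89 (Con replicate 1) and 3.07 (HFD+AOS replicate 3), and values were not rescaled. Genes named were those past the threshold, those with the smallest p of each family in each comparison, the leading genes by level or spread, and a set of well-known members. Sult1e1, Sult2a1, Sult2a2, Sult3a1 and Sult3a2 were singled out after their values were seen. Correlations used deviations of log2 values from group means, over libraries that share processing and depth differences. The procedure was tested on simulated data. Alternatives were another pseudocount (0.1), no filter, equal medians, only the groups compared, the study's cut-offs, robust variances, a replicate block and leaving out libraries. Python 3.11.15 with numpy 2.4.6, pandas 2.3.3, biopython 1.88 and matplotlib 3.10.9 did the rest. Promoter stretches are from RefSeq tables, and transcripts from GENCODE.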

Additional observations from a re-analysis of the deposited data

How the results depend on the processing

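With 3 livers a group, few calls were stable. Against 1 member called between A10-FMT and HFD, the study's cut-offs, only the groups compared and the fit without the third Con and AOS libraries each gave 0, and equal library medians gave 3. Against 2 members called between HFD+AOS and HFD, the study's cut-offs gave 0, and only the groups compared and the fit without the third Con and AOS libraries each gave 1. With only the groups compared, AOS against Con gave 1 in place of 0. With single libraries left out, the number called ran from 0 to 2 for HFD against Con, 0 to 7 for A10-FMT against HFD, 0 to 1 for Con-FMT against HFD, 0 to 8 for HFD+AOS against HFD and 0 to 4 for the interaction of AOS with diet, and it stayed at 0 for A10-FMT against Con-FMT and AOS against Con. The highest numbers came without HFD replicate 1, and for HFD against Con without Con replicate 2. The interaction of AOS with diet was -0.35 for Sult1a1 and ran from -0.57 to 0.021 with single libraries left out (0.021 without HFD+AOS replicate 2), and was 0.17 for Sult1b1 and ran from -0.10 to 0.47 (-0.10 without Con replicate 2). The cause was not tested.

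Livers with the same replicate number did not deviate together (correlations between -0.177 and 0.225, no comparison paired), and the labels do not say that a number marks a shared litter or day. A fit with the number as a replicate block gave 1 member in place of 2 for HFD+AOS against HFD, Ugt1a6b having an adjusted p of 0.0539 by limma, and the same number in the other comparisons. The spread without the third Con and AOS livers or Con-FMT replicate 2, the non-overlap and list calls without libraries, and the pericentral sum without Cyp2e1 were computed after the data were seen. Depth cannot be read from RPKM, so no detection limit can be given for the 3 members at 0.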
